A study of Mus musculus with 15 samples.

Results

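RNA precipitated from mouse cortex with an antibody against 5-methylcytosine (m5C RIP) was compared with a cortex input library. The comparison holds every cortex library of the series, 4 of its 15: 3 m5C RIP libraries, chosen by tissue and antibody from the titles, and 1 library titled input. The m5C RIP libraries came from a wild-type (WT), a heterozygous (Het) and a homozygous (Hom) mouse cortex, 1 library each, of a line whose Dnmt1 gene, for the enzyme that copies DNA methylation at replication, carries a dominant mutation. The input carries the word input in place of a genotype, and its antibody label names anti-IgG. The sources used here do not give the age, sex, dissection or number of animals of the cortex samples, and the culture protocol attached to them describes tail fibroblasts. Nothing in the labels says that the libraries came from separate animals, so every p-value measures only how far these libraries spread, which may be technical. Genotype cannot be told apart from library, and every ratio shares the single input, so a peculiarity of that input cannot be told apart from an effect of the precipitation.

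5-methylcytosine in RNA is made mainly by enzymes of the NSUN family and by DNMT2. In mammals it is best known in transfer and ribosomal RNA, where it affects stability and translation, and it also occurs at lower levels in messenger RNA. NSUN6 marks RNAs at a CUCCA motif, NSUN2 many tRNAs and mRNAs, and NSUN4 the ribosomal RNA of mitochondria. The antibody enriches fragments that carry the base, and counts per gene then show how much RNA of a gene was recovered, not where the base lies or in what share of molecules.

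The 3 transcripts on which the results turn are shown here, read from GENCODE M21 on mm10. mt-Nd4l (chrM:9877-10173, plus strand, a coding mRNA of 297 bases for a small complex I subunit) had the largest increase of any called gene. mt-Nd3 (chrM:9459-9806, plus strand, 348 bases, another complex I subunit) lies close to it on the same strand of mitochondrial DNA and was also higher. Bc1 (chr7:144914470-144914637, plus strand, 168 bases, 1 exon) is a non-coding RNA of rodent neurons that represses translation in dendrites, and was lower. Capitals mark CTCCA, the DNA form of the NSUN6 motif, searched on the transcript strand only. For mt-Nd3 the first 300 bases are printed (chrM:9459-9758).
mt-Nd4l: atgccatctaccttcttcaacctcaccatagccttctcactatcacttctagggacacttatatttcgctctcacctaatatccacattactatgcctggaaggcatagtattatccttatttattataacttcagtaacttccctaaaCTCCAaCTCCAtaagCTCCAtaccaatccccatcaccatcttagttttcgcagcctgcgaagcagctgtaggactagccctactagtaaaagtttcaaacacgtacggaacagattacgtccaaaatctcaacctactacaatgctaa
mt-Nd3: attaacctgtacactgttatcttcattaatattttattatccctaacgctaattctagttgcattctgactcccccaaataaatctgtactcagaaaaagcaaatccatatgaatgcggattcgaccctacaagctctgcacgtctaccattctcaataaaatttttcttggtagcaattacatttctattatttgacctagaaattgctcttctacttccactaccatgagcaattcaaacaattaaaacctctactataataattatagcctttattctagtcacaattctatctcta
Bc1: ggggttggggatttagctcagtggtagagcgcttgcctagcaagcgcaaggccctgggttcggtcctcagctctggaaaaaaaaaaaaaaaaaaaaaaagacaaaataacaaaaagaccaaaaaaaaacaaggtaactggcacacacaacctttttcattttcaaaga
The motif occurred 3 times in mt-Nd4l and not in the other 2 transcripts. Among tested genes within 20% of its length it was present in 4 of 10 for mt-Nd4l and in 9 of 22 for mt-Nd3. Cytosine made up 89 of the 297 bases of mt-Nd4l, 77 of the 348 of mt-Nd3 and 32 of the 168 of Bc1. A match describes the letters alone and shows no methylated site.

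Counts in genes totalled 1310590 in WT, 1434653 in Het, 2408694 in Hom and 4913482 in input, so the input was the deepest library. Levels are given as CPM normalised with TMM factors, and 3 counts, the most that a count of 0 allows, correspond to 2.34, 2.07, 1.26 and 0.616 CPM in the same order. Unaligned entries made up 86.3%, 79.7% and 79.3% of all entries in WT, Het and Hom and 63.2% in input. Of the entries in a gene or in no gene, 44.9%, 43.3% and 45.1% lay in genes in the m5C RIP libraries and 35.4% in input. The part of these differences in the results below was not tested. No library repeated another. Markers of the labelled tissue were present: all 17 pan-neuronal, 18 excitatory and 19 inhibitory marker genes were detected in all 4 libraries.

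Of 13518 genes tested with edgeR's quasi-likelihood test, 65 passed a Benjamini-Hochberg adjusted p of 0.05 (0.481%) and are called here. 36 were higher in m5C RIP (0.266%) and 29 lower (0.215%), each in the same direction in all 3 libraries. Fitted log2 fold changes ran from 0.85 to 3.44 among genes called higher (median 1.25) and from -0.84 to -8.85 among the 22 genes called lower that had counts in m5C RIP. The other 7 had 0 counts in all 3 m5C RIP libraries and have only a bound. With these at their bounds, the median of the 29 was -2.27. Without regard to a test, 3194 genes were higher than input in every m5C RIP library (23.6%), 3141 were lower in every one (23.2%), and 7183 had libraries on both sides. At least a 2-fold difference in every library was found for 71 genes above input (0.525%) and 89 below (0.658%). Both counts include genes that passed the filter on low counts only through the side where they were high. Over genes with a mean of at least 10 CPM these 2-fold counts were 34 and 25. Counts above or below input in every library can also include genes that passed the filter through 1 side alone. This holds over all genes and over the lists and length classes below. An exact permutation test of 3 libraries against 1 cannot go below p = 0.25 for a single gene, so calls rest on the spread shared across genes in edgeR. At an unadjusted p under 0.05 there were 919 genes (6.8%), 573 higher (4.24%) and 346 lower (2.56%). Leaving out the WT library raised the calls to 127 higher and 82 lower.

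**Figure D1:**
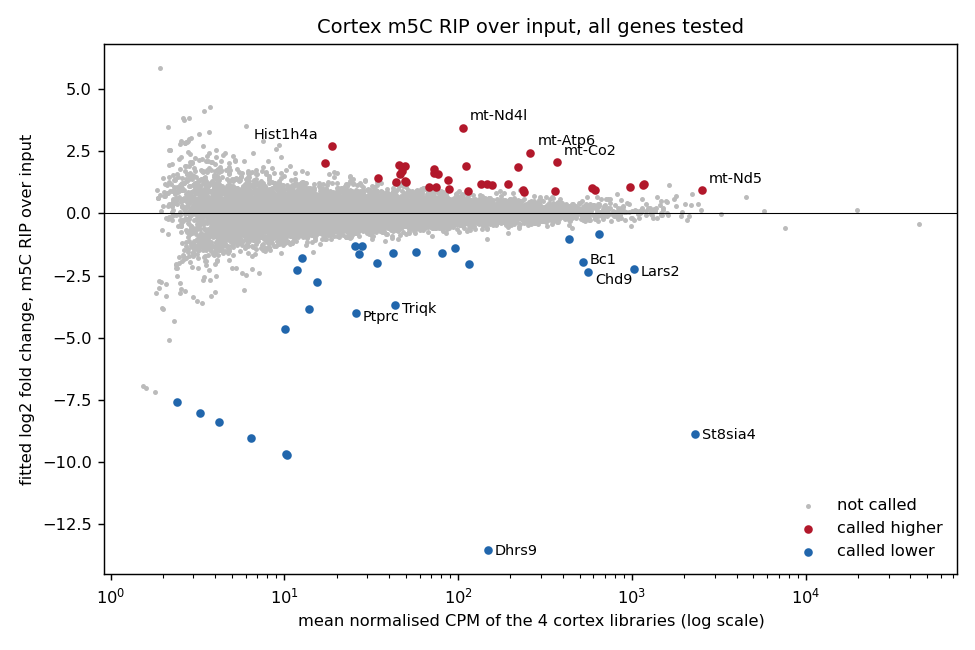
Fitted log2 fold change of m5C RIP over input (vertical axis) against the mean normalised CPM of the 4 cortex libraries (horizontal axis, log scale). Each point is 1 of 13518 genes. The 36 genes called higher are red and the 29 called lower are blue. Mitochondrially encoded genes lead the red points, St8sia4 and Dhrs9 lie far below all other abundant genes, and the fitted values of genes with 0 counts in m5C RIP depend on the prior.

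Most of the transcriptome differed little. Over the 10452 genes with a mean of at least 10 CPM, the median absolute log2 ratio to input was 0.27 in WT, 0.26 in Het and 0.24 in Hom. Between m5C RIP libraries the same measure was 0.29 for WT and Het, 0.26 for WT and Hom and 0.21 for Het and Hom. These medians include counting noise, which is larger in the shallower m5C RIP libraries. A chi-square statistic of counts per degree of freedom, in which counting noise alone gives about 1 and which grows with depth, was 2.53 to 4.70 between m5C RIP libraries and 6.54, 7.95 and 10.2 between WT, Het and Hom and the deeper input. The median log2 fold change of all genes tested was 0.02.

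The largest group among genes called higher was the mRNAs encoded in mitochondrial DNA, which code for core subunits of the respiratory chain and ATP synthase. All 13 measured were above input in all 3 m5C RIP libraries and 9 were called, with a median log2 fold change of 1.19 over the group. One of the 13, mt-Atp8, which was not called, passed the filter on low counts through m5C RIP alone, so it had to differ. mt-Nd4l stood at 71.1 CPM in WT, 202.5 in Het, 139.6 in Hom and 12.7 in input. Its log2 fold change was 3.44 ± 0.39 (SE; edgeR adjusted p = 3.04e-06). The lowest m5C RIP library was thus well above the input, although the 3 differed among themselves.

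mt-Atp6, an ATP synthase subunit, was at 289.8, 362.9 and 326.3 CPM in WT, Het and Hom and at 60.2 in input, a log2 fold change of 2.44 ± 0.22 (SE; edgeR adjusted p = 5.08e-08). mt-Co2, a catalytic subunit of cytochrome c oxidase, was at 416.4, 485.3 and 465.9 CPM against 110.7, a log2 fold change of 2.04 ± 0.20 (SE; edgeR adjusted p = 2.11e-07). Both were close together in the 3 m5C RIP libraries and far from the input. mt-Co3, of the same oxidase, was at 207.0, 374.0 and 231.5 CPM against 73.3, a log2 fold change of 1.88 ± 0.26. mt-Nd3 was at 43.7, 71.2 and 67.5 CPM against 16.4, a log2 fold change of 1.90 ± 0.32. In both, every m5C RIP library was above the input, and WT was the lowest of the 3.

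The other complex I genes called were mt-Nd2, mt-Nd4, mt-Nd5 and mt-Nd6, with log2 fold changes of 1.19, 1.04, 0.92 and 1.12. mt-Nd5 was at 2149.0 CPM in WT, 3264.2 in Het, 3143.1 in Hom and 1507.7 in input. These 4 were no longer called over genes of at least 10 CPM alone (edgeR adjusted p from 0.119 to 0.166), and mt-Nd4, mt-Nd5 and mt-Nd6 were not called without Hom (0.116, 0.358 and 0.0845). DESeq2 did not call mt-Nd2 and mt-Nd6 (both adjusted p = 1.0). mt-Nd1, mt-Co1, mt-Cytb and mt-Atp8 did not pass, with log2 fold changes of 0.67, 0.66, 0.79 and 2.60 and edgeR adjusted p from 0.09 to 0.259. mt-Atp8, the shortest, had only 9 counts in input. mt-Co1, the most abundant of the 13, was at 4082.5, 5423.8 and 5465.1 CPM against 3160.4.

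In every one of the 13 mitochondrially encoded genes the WT library had the lowest ratio to input of the 3. Median log2 ratios over the group were 0.59 in WT, 1.49 in Het and 1.36 in Hom. Together the 13 genes took 1.23%, 1.95% and 1.86% of gene counts in WT, Het and Hom and 0.901% in input. Shorter genes tended to have larger fold changes: Spearman's rho between log2 fold change and length was -0.82 across the 13, which share precursors, libraries and the input. The shortest, mt-Atp8, passed the filter on low counts through m5C RIP alone. Genes low in input, the denominator, had larger fold changes too. Those at 110.7 CPM or less in input had log2 fold changes of 1.88 or more, and those at 545.8 CPM or more had 1.19 or less. The parts of length and input level were not tested. mt-Nd5 and mt-Nd6 overlap by 14 bases on opposite strands, mt-Atp8 and mt-Atp6 by 43, mt-Nd4l and mt-Nd4 by 7 and mt-Atp6 and mt-Co3 by 1. The sources used here do not give the strand setting of the counting, so reads of mt-Nd6 and of RNA antisense to it cannot be told apart.

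**Figure D2:**
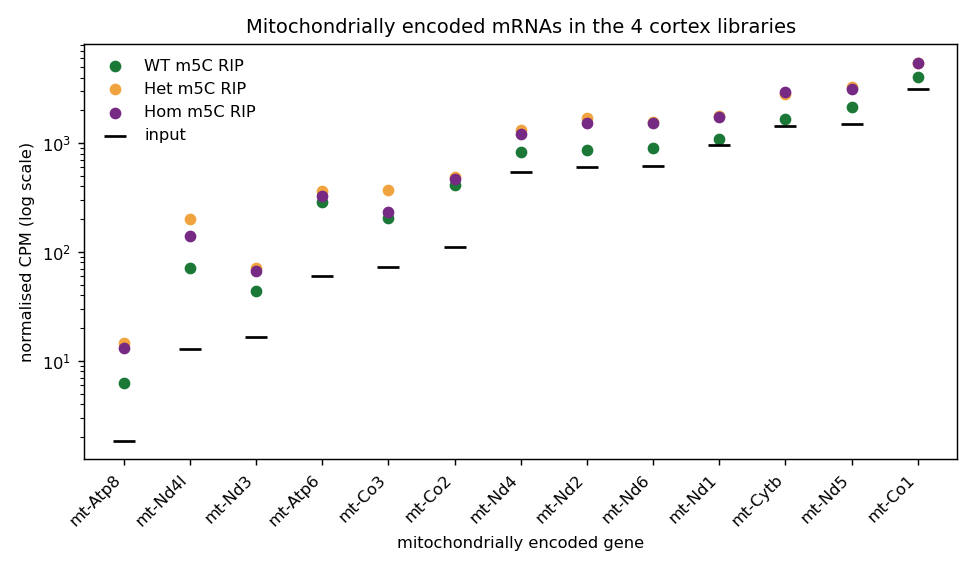
Normalised CPM (vertical axis, log scale) of the 13 mitochondrially encoded genes in the 3 m5C RIP libraries (points) and the input (bars), ordered by input level. Every point lies above its input bar, and the WT point is the lowest of the 3 in log2 ratio for each gene. The log2 fold change is 3.44 for mt-Nd4l, at 12.7 CPM in input, and 0.66 for mt-Co1, at 3160.4.

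Of 76 nuclear genes for the respiratory chain, 5 were called higher and none lower, where 0.266% and 0.215% of all genes tested were, with a median log2 fold change of 0.22. 40 of the 76 were above input in all 3 libraries (23.6% of all genes were) and 16 below (23.2%). Ndufb8, a complex I subunit, was at 60.2, 49.8 and 62.5 CPM in WT, Het and Hom and at 17.7 in input (log2 fold change 1.70 ± 0.30, SE; edgeR adjusted p = 0.00196). Ndufc2, another, was at 76.6, 87.1 and 99.0 CPM against 28.5 (1.63 ± 0.26). Cox5b, of cytochrome c oxidase, was at 185.1, 163.1 and 196.3 CPM against 82.8 (1.14 ± 0.21). For these 3 the m5C RIP libraries were close together and all above the input. Ndufa12 and Cox7c were called with log2 fold changes of 1.32 and 1.07, and both lost the call without the Hom library (edgeR adjusted p = 0.264 and 0.242), Cox7c also without Het (0.0695). Neither was called over genes of at least 10 CPM (edgeR adjusted p = 0.119 and 0.109) or in DESeq2 (adjusted p = 0.409 and 0.43). Cox7c was also lost with RLE size factors (edgeR adjusted p = 0.0535) and library totals (0.0515).

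Genes for mitochondrial proteins outside the respiratory and ribosomal lists were called in both directions. Pet100, an assembly factor of cytochrome c oxidase, Atpif1, the inhibitor of the ATP synthase, and Dlat, a subunit of pyruvate dehydrogenase, were higher, and Acot9, Lars2 and Nsun4, described below, were lower. Atpif1 and Dlat had log2 fold changes of 1.57 and 0.92, and Dlat was not called without Het (edgeR adjusted p = 0.0771) or without Hom (0.131). Neither was called over genes of at least 10 CPM (both 0.0947) or in DESeq2 (0.143 and 0.179). Pet100 was at 25.0, 17.97 and 20.1 CPM against 5.13, a log2 fold change of 2.02 ± 0.47 (SE; edgeR adjusted p = 0.0485). It was not called over genes of at least 10 CPM (edgeR adjusted p = 0.134), with RLE size factors (0.0535), without Hom (0.107) or in DESeq2 (0.501). The input level of Pet100 was under the filter on low counts, which it passed through m5C RIP alone, so it had to differ. Of 74 genes for mitochondrial ribosomal proteins none was called (0.481% of all genes were), and the median log2 fold change was 0.25. In this list 29 were above input in all 3 libraries and 10 below (23.6% and 23.2% of all genes were). Mrpl50, the one of smallest p, was at 26.6, 27.7 and 32.3 CPM against 12.3 (edgeR adjusted p = 0.192).

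Of 79 genes for cytosolic ribosomal proteins 4 were called higher and none lower, where 0.266% and 0.215% of all genes tested were. Over the group, 34 were above input in all 3 libraries (23.6% of all genes were), 25 below (23.2%), and the median log2 fold change was 0.09, or 0.02 without WT. Rpl35 was at 41.4, 55.3 and 71.7 CPM in WT, Het and Hom and at 14.8 in input, a log2 fold change of 1.95 ± 0.33 (SE; edgeR adjusted p = 0.0013). Rpl27 was at 77.3, 109.9 and 78.8 CPM against 25.7, a log2 fold change of 1.78 ± 0.27. Rpl31 and Rps14 had log2 fold changes of 1.33 and 1.18. For all 4 the lowest m5C RIP library was above the input. Ribosomal protein genes have many near-identical pseudogene copies, among which the counting could split reads, so these values are uncertain.

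Hist1h4a, a gene for histone H4 (chr13:23760692-23761230, minus strand, 1 exon), was at 25.0, 21.4 and 25.6 CPM against 3.70 in input. Its log2 fold change was 2.69 ± 0.47 (SE; edgeR adjusted p = 0.00198). Its input level was under the filter on low counts, which it passed through m5C RIP alone, so it had to differ. Hist1h4a was the only one of 27 replication-dependent histone genes called. Their median log2 fold change was 0.01, but -0.31 with no filter on low counts and -0.28 in DESeq2. Hist1h4f, which codes for the same protein, was at 19.5, 11.8 and 15.5 CPM against 8.21 and was not called (edgeR adjusted p = 0.79). The filter on low counts was passed by 27 of the 64 listed. Histone genes are near-identical copies of one another, and their mRNAs end without a polyA tail, so their counts are uncertain. H2afz, the separate gene of a histone H2A variant whose mRNA is polyadenylated, was called with 72.6, 103.7 and 100.2 CPM against 30.8, a log2 fold change of 1.59 ± 0.26.

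Genes called higher outside these groups follow. Dynlrb1, a light chain of the dynein motor (chr2:155236533-155250277, plus strand), was at 120.3, 128.6 and 160.6 CPM against 36.8. Its log2 fold change was 1.90 ± 0.24 (SE; edgeR adjusted p = 2.3e-05). Ubl5 and Sumo3, both ubiquitin-like proteins, had log2 fold changes of 1.26 and 1.04, and Selenow, a small selenoprotein, 0.90. Mt3, the brain metallothionein, was at 286.7, 264.1 and 256.2 CPM against 148.7, a log2 fold change of 0.85, the smallest of those called higher. Without Hom, Ubl5, Sumo3, Selenow and Mt3 were not called (edgeR adjusted p = 0.183, 0.0803, 0.183 and 0.167), nor was Sumo3 without Het (0.146). Drap1, a repressor of transcription, was at 181.2, 161.1 and 167.7 CPM against 75.2 (1.18 ± 0.21).

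Among genes best known in neurons, Hpca (hippocalcin, a calcium sensor) was at 724.9, 590.4 and 717.9 CPM against 335.3 (log2 fold change 1.02 ± 0.19, SE; edgeR adjusted p = 0.00389). Ywhah, a 14-3-3 protein abundant in brain, was at 771.8, 631.1 and 681.5 CPM against 360.4 (0.95 ± 0.19, SE; edgeR adjusted p = 0.00779). In both genes the 3 m5C RIP libraries were well above the input and Het was the lowest. Without the Hom library neither was called (edgeR adjusted p = 0.0842 and 0.0987). Tecr, an enzyme of fatty acid elongation, Mea1, Shisa5 and the unnamed loci BC031181 and Gm42372 complete the genes called higher, with log2 fold changes from 0.92 to 1.43. Without Hom, Tecr, Mea1, Shisa5 and BC031181 were not called (edgeR adjusted p from 0.0521 to 0.208), nor were Mea1 and Shisa5 without Het (0.113 and 0.0513).

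**Figure D3:**
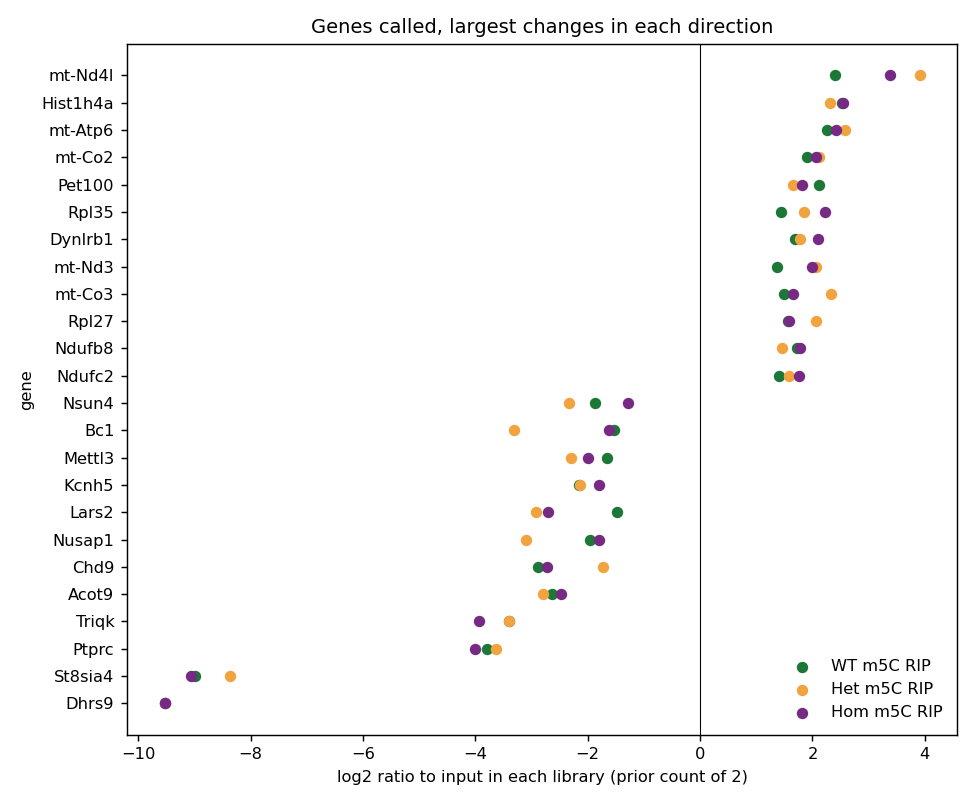
Log2 ratio to input (horizontal axis, prior count of 2) in each m5C RIP library for the 12 largest changes in each direction among named genes called with a mean of at least 10 CPM. Points are single libraries. All points of a gene lie on the same side of 0. St8sia4 and Dhrs9 are far from the rest, and for Dhrs9, with 0 counts in all 3 libraries, the position is set by the prior.

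The genes called lower were led by single transcripts that were abundant in the input and nearly missing from m5C RIP. St8sia4, which makes polysialic acid on the neural cell adhesion molecule (chr1:95587682-95667571, minus strand), was at 17.2, 27.0 and 16.4 CPM in WT, Het and Hom and at 9188.6 in input. In counts these were 22, 39 and 39 against 44745, which exceeds the 44269 input counts of all 13 mitochondrially encoded genes together. The log2 fold change was -8.85 ± 0.19 (SE; edgeR adjusted p = 1.8e-22). Dhrs9, a short-chain dehydrogenase of retinoid and steroid metabolism (chr2:69380445-69404533, plus strand), had 2884 counts in input, 592.2 CPM, and none in any m5C RIP library. Taking 3 counts in each m5C RIP library, it was at least 313.1-fold lower (edgeR adjusted p = 2.63e-17).

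In all, 7 of the 29 genes called lower had 0 counts in all 3 m5C RIP libraries. Besides Dhrs9 they were Slc34a2, a phosphate transporter, and the unnamed loci 4930543K20Rik, 9530014B07Rik, C030005K15Rik, Gm14236 and Gm45833. 4930543K20Rik was at 41.7 CPM in input and Gm14236 at 40.9, at least 22.0-fold and 21.6-fold lower by the same bound. The other 4 were at least 5.1-fold to 13.7-fold lower, and Slc34a2 was not called without Hom (edgeR adjusted p = 0.185). These genes passed the filter on low counts through the input alone, and so had to differ. Among other unnamed loci, Gm43625, A430106G13Rik and C230004F18Rik were called with log2 fold changes of -4.66, -3.85 and -1.01. Gm43625, with 1, 4 and 2 counts in WT, Het and Hom against 176 in input, also passed the filter through the input alone. No gene called higher was at 0 in input, but Hist1h4a and Pet100 passed the filter through m5C RIP alone. With 1 input, whether the input levels of the genes called lower are those of cortex or of that library cannot be told apart.

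Ptprc, the leukocyte phosphatase CD45 (chr1:138062861-138175708, minus strand), was at 5.47, 6.22 and 4.61 CPM against 86.5 in input, a log2 fold change of -4.01 ± 0.32 (SE; edgeR adjusted p = 5.02e-09). The 18 microglia and macrophage markers tested, which do not include it, had none called (0.481% of all genes were). Of the 18, 4 were below input in all 3 libraries and 1 above (23.2% and 23.6% of all genes were). Lyz2, one of the 4, passed the filter on low counts through the input alone, so it had to be lower. The summed level of the list was 262.5 to 329.6 CPM in m5C RIP and 319.5 in input. For Ptprc, an effect of the precipitation and a peculiarity of the single input, the cells in its tissue among them, cannot be told apart. Triqk, which codes for a small membrane protein, was at 12.5, 12.4 and 8.39 CPM against 140.1 (log2 fold change -3.70 ± 0.27). Acot9, a mitochondrial acyl-CoA thioesterase, was at 6.25, 5.53 and 7.13 CPM against 43.1 (-2.74 ± 0.36).

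Chd9, a chromatin remodeller, was at 191.4, 427.9 and 213.5 CPM against 1414.1, a log2 fold change of -2.35 ± 0.24. Lars2, the leucyl-tRNA synthetase of mitochondria, was at 894.5, 328.4 and 379.9 CPM against 2489.5, a log2 fold change of -2.23 ± 0.27. For both genes all 3 libraries were below the input but differed among themselves by over 2-fold, and neither was called by DESeq2 (adjusted p = 0.294 and 1.0). Gm42418 and Gm26917, which overlap ribosomal RNA sequence, were also below input in every library without being called by edgeR (adjusted p = 0.0652 and 0.227), and both were called without WT (4.18e-06 and 2.09e-08). Gm42418 was also called with library totals, with no filter on low counts and in DESeq2. Gm26917 was the most abundant at 49346.4, 36192.2 and 37503.5 CPM against 55621.7. The list of dominant and ribosomal-overlapping transcripts also holds scarce ones, such as Gm10717 at 22.65, 2.77 and 5.03 CPM against 27.7. Over its 10 members tested the median log2 ratio was 0.49 in WT, -2.01 in Het and -1.20 in Hom, and 4 were below input in all 3.

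Kcnh5, a voltage-gated potassium channel, was at 59.4, 60.1 and 76.3 CPM against 267.6, a log2 fold change of -2.02 ± 0.20 (SE; edgeR adjusted p = 1.77e-07). The 47 voltage-gated channel genes on the list, which does not include it, had none called and a median log2 fold change of -0.01. Nusap1, a spindle protein, was at 7.03, 2.77 and 7.97 CPM against 29.8 (-2.27 ± 0.44), and was not called by DESeq2 (adjusted p = 0.742). Fth1, the ferritin heavy chain, was at 564.0, 417.5 and 631.1 CPM against 962.7 (-0.84 ± 0.18), and without Het it was not called (edgeR adjusted p = 0.074). Fth1 has many pseudogene copies, so its count is uncertain. Ttn, Cdc27, Gtpbp4, Zfp654 and Shf were called with log2 fold changes from -1.63 to -1.30, Shf not without Hom (edgeR adjusted p = 0.066). DESeq2 called neither Zfp654 (adjusted p = 0.401) nor Shf. Shf was also lost with RLE size factors (edgeR adjusted p = 0.0535), library totals (0.0515) and over genes of at least 10 CPM (0.126).

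Bc1, whose sequence is given above, was at 406.2 CPM in WT, 118.2 in Het, 383.3 in Hom and 1176.5 in input. Every m5C RIP library was below the input, with Het the lowest. Its log2 fold change was -1.95 ± 0.30 (SE; edgeR adjusted p = 0.00035), and DESeq2 did not call it (adjusted p = 1.0). Of 29 small and structured RNAs without a polyA tail on the list, 2 are in the files and Bc1 alone passed the filter.

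Among 17 genes for RNA m5C methyltransferases and readers, Nsun4 was called lower and none higher, with a median log2 fold change of 0.16, which was 0.01 without Het and 0.04 without Hom. Nsun4 was at 7.03, 4.84 and 10.9 CPM against 27.7 (log2 fold change -1.80 ± 0.42, SE; edgeR adjusted p = 0.0485). The call was lost in DESeq2 (adjusted p = 1.0), without Het (0.0731), with RLE size factors (0.0535) and over genes of at least 10 CPM (0.136). Nsun6, which writes at the motif shown above, was at 11.7, 11.1 and 9.23 CPM against 7.19 and did not pass (edgeR adjusted p = 0.973). Alyref, a reader that exports m5C-bearing mRNA, was at 38.3, 30.4 and 43.2 CPM against 29.6 (edgeR adjusted p = 0.954). Tet2, which oxidises 5-methylcytosine, was at 126.6, 128.6 and 116.2 CPM against 101.0 (edgeR adjusted p = 0.893). Mettl3, the writer of another base modification, N6-methyladenosine, was at 24.2, 15.2 and 18.9 CPM against 77.8. Its log2 fold change was -2.01 ± 0.28 (SE; edgeR adjusted p = 8.59e-05).

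Dnmt1, the mutated gene, was at 1668.6 CPM in WT, 1152.4 in Het, 1125.6 in Hom and 1139.1 in input, a log2 fold change of 0.21 ± 0.19 (SE; edgeR adjusted p = 0.966). Het and Hom lay at the input level and WT above it. As the mutation does not remove the gene, its count checks no label. None of 16 genes of the DNA methylation machinery was called, where 0.481% of all genes tested were.

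No neuronal or synaptic gene on the lists was called, where 0.481% of all genes tested were. The lists held 17 pan-neuronal markers, 32 presynaptic genes, 24 glutamate receptor genes, 14 GABA receptor genes, 26 postsynaptic scaffold genes and 24 neurofilament and axon cytoskeleton genes. Their median log2 fold changes lay between 0.01 and 0.10. Of the presynaptic genes 13 were above input in all 3 libraries and 7 below (23.6% and 23.2% of all genes were). Snap25, a SNARE protein of synaptic vesicle fusion, was at 1766.2, 1957.0 and 2001.6 CPM against 1282.8. Its edgeR adjusted p was 0.192, 0.00111 without WT, and 0.0162 in DESeq2. Syp (synaptophysin) was at 809.3, 743.8 and 764.9 CPM against 517.5 (edgeR adjusted p = 0.227, and 0.0235 without WT). Syn1 (synapsin), which tethers synaptic vesicles, was lower at 374.2, 246.1 and 257.9 CPM against 413.2 (log2 fold change -0.50 ± 0.20, SE; edgeR adjusted p = 0.522, and 0.00417 without WT). Snap25 and Syp were thus above the input and Syn1 below it in every library, each by less than 1 on the log2 scale.

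Markers of excitatory neurons had a median log2 fold change of 0.33. Of the 18, 9 were above input in all 3 libraries and 2 below (23.6% and 23.2% of all genes were). Slc17a7, the vesicular glutamate transporter, was at 1107.7, 884.2 and 1018.2 CPM against 760.2 (edgeR adjusted p = 0.654). Markers of inhibitory neurons had a median of -0.31, with 3 of 19 above in all 3 and 6 below. Gad2, an enzyme that makes GABA, was at 176.5, 210.2 and 161.0 CPM against 253.6 (edgeR adjusted p = 0.538), and Pvalb, of fast-spiking interneurons, at 54.7, 47.0 and 36.5 against 29.8 (0.732). Het had a median ratio of 0.06 over the inhibitory list, WT -0.19 and Hom -0.24, and the median fold change was -0.09 without Hom. No marker of either class was called, where 0.481% of all genes tested were.

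Of glial markers none was called, where 0.481% of all genes tested were. Of all genes tested 23.6% were above input in all 3 libraries and 23.2% below. Oligodendrocyte and myelin genes had 10 of 20 above input in all 3 libraries and 1 below, with a median log2 fold change of 0.17. Mobp, a myelin protein, was at 757.7, 857.9 and 820.7 CPM against 538.4, with an edgeR adjusted p of 0.207, 0.00484 without WT, and 0.0432 in DESeq2. Astrocyte markers had 9 of 19 above input in all 3 and 3 below, with 11 fold changes above 0 and 8 below (median 0.14). Aldoc, an aldolase of astrocytes, was at 548.4, 662.9 and 610.2 CPM against 390.4, with an edgeR adjusted p of 0.175 and 0.00336 without WT. Oligodendrocyte precursor markers had 0 of 8 above input in all 3 and 5 below (median -0.31), and meningeal and fibroblast markers 0 of 12 above and 5 below (median -0.26). These medians were -0.47 without Het and -0.46 without WT, respectively. Bmp4, one of the 5 precursor markers below input, was at 4.69, 1.38 and 2.10 CPM against 8.42. It passed the filter on low counts through the input alone, so it had to be lower.

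Drd1, the dopamine receptor of striatal neurons, was the only marker of another brain region called. It was at 15.6, 20.05 and 24.7 CPM against 52.0, a log2 fold change of -1.33 ± 0.30 (SE; edgeR adjusted p = 0.0355). It was not called in DESeq2 (adjusted p = 1.0) or over genes of at least 10 CPM (edgeR adjusted p = 0.109). The summed level of the 14 striatum and hippocampus markers was 936.7 to 1316.0 CPM in m5C RIP and 1138.5 in input, and Ppp1r1b (DARPP-32) was above input in all 3 libraries. Rgs9, also striatal, was below the input in all 3 without being called. The part of dissection in these values was not tested.

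**Figure D4:**
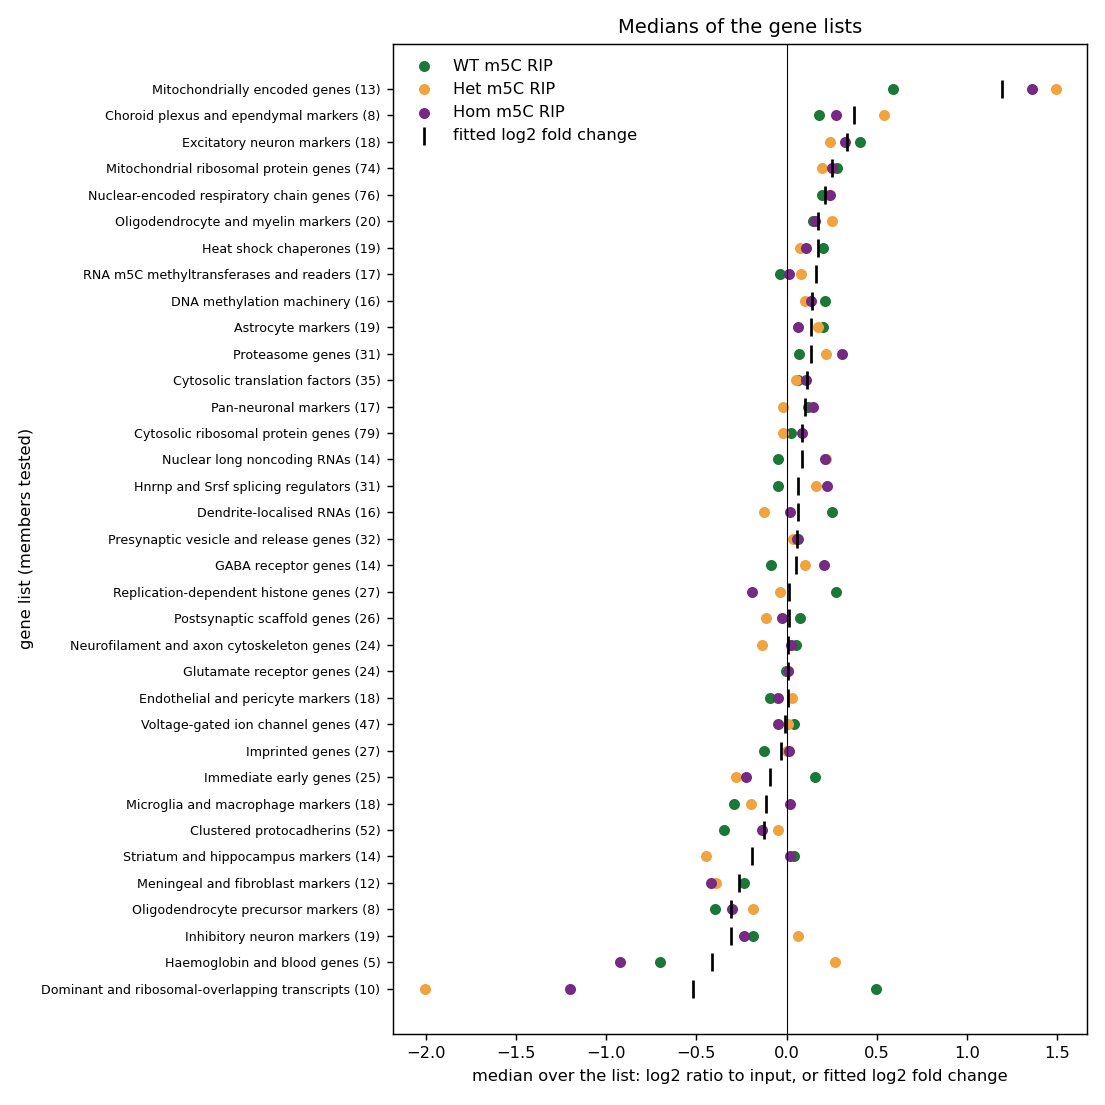
Median over each gene list of the log2 ratio to input in WT, Het and Hom m5C RIP (points) and of the fitted log2 fold change (bars), for lists with at least 5 members tested (numbers in brackets). The mitochondrially encoded genes stand far to the right in all 3 libraries. The list of dominant and ribosomal-overlapping transcripts, which also holds scarce ones, has WT at 0.49 and Het and Hom at -2.01 and -1.20. Most other lists lie near 0.

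Lists for protein synthesis, folding, turnover and splicing are given beside the shares of all genes above (23.6%) and below (23.2%) input in all 3 libraries. Of 31 proteasome genes 14 were above in all 3 libraries and 6 below, of 35 translation factors 12 and 7, of 19 heat shock chaperones 7 and 2, and of 31 Hnrnp and Srsf splicing regulators 10 and 4. None was called, and the medians were 0.14, 0.11, 0.17 and 0.06. Those of translation factors and chaperones were 0.06 without Het or without Hom and 0.08 without WT, respectively. The splicing regulators had a median ratio of -0.05 in WT, 0.16 in Het and 0.22 in Hom. Eif5a, an elongation factor, was at 225.8, 221.2 and 252.0 CPM against 132.0, just outside the threshold (edgeR adjusted p = 0.0536). Hspa8, the constitutive HSP70, was at 1313.9, 1216.0 and 1198.1 CPM against 828.8 (edgeR adjusted p = 0.196, and 0.0172 in DESeq2). Hsp90aa1 was below the input at 380.4, 383.0 and 426.1 CPM against 541.9, whereas Hsp90ab1 was above at 1589.7, 1484.2 and 1664.9 against 1135.6. Neither passed (edgeR adjusted p = 0.492 and 0.394).

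Clustered protocadherins, adhesion proteins that give neurons their identity, had 19 of 52 below input in all 3 libraries and 7 above. Of all genes tested 23.2% were below in all 3 and 23.6% above. The protocadherins had a median log2 fold change of -0.13 and none called. Pcdhb3, one of the 19, was at 3.13, 2.07 and 3.36 CPM against 8.21. It passed the filter on low counts through the input alone, so it had to be lower. Immediate early genes, which respond to neuronal activity, had 6 of 25 below and 2 above. Npas4 was at 32.0, 30.4 and 32.3 CPM against 53.0 (edgeR adjusted p = 0.446). Nuclear long noncoding RNAs had 4 of 14 above and 2 below, with none called.

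Genes called higher had shorter transcripts than the rest, whereas genes called lower did not. The median length of the longest annotated transcript was 1003 bases for genes called higher, 3545 for genes called lower and 3565 for all genes with a length. Of 13394 such genes 524 were under 1 kb (3.91%), and these held 18 of the 36 genes called higher and 4 of the 29 called lower. Many of the 18 belong to groups described above. From 0.5 to 1 kb, 16 of 472 genes were called higher. Among nuclear protein-coding genes outside the ribosomal, respiratory and histone lists, 5 of 265 were. Median log2 fold changes by length were 0.43 under 0.5 kb (52 genes), 0.28 from 0.5 to 1 kb, 0.11 from 1 to 2 kb, 0.04 from 2 to 4 kb, -0.03 from 4 to 8 kb and -0.05 above. The share above input in all 3 libraries was 38.5% in the shortest class and 16.1% in the longest, and the share below in all 3 was 14.6% from 0.5 to 1 kb and 30.8% in the longest. Shorter transcripts also had lower levels in input, with a median of 9.04 CPM from 0.5 to 1 kb and 108.4 CPM above 8 kb. Under 0.5 kb the median input level, 5.03 CPM, was itself under the filter on low counts. Genes under it in input passed through m5C RIP alone and had to be above input in at least 1 library. The median and shares of this class are therefore partly fixed by the filter.

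Spearman's rho between length and log2 fold change across the 13394 genes was -0.16. Against single-library ratios it was -0.15 in WT, -0.10 in Het and -0.09 in Hom. These are weak relations across genes, which are not independent replicates and share the input. The class from 0.5 to 1 kb kept a median of 0.25 in nuclear protein-coding genes outside the ribosomal and respiratory lists and of 0.35 over genes of at least 10 CPM, and had 0.08 with no filter. The class under 0.5 kb was not stable: its median was 0.02 over genes of at least 10 CPM and 0.09 without WT or without Het. The motif CTCCA was present in 75.0% of the longest transcripts of genes called higher, 86.2% of genes called lower and 96.7% of all, with medians of 1.69, 1.42 and 1.62 matches per kb. Whether a transcript holds the motif depends on its length, so density is the measure to read.

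GC content went with the ratio in opposite directions in WT and in Het and Hom. In WT the median log2 ratio ran from -0.18 below 40% GC to 0.14 at 60% or more. In Het it ran from 0.11 to -0.26 and in Hom from 0.05 to -0.23 over the same classes. All 36 genes called higher are annotated as protein-coding. Of the 29 called lower 21 are protein-coding, 7 lincRNA and 1 antisense, among 298 lincRNA and 361 antisense genes tested. Of these 8 non-coding genes 4 had 0 counts in all m5C RIP libraries. These 4 and Gm43625 passed the filter through the input alone, so the count says nothing of lincRNA or antisense RNA as classes.

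**Figure D5:**
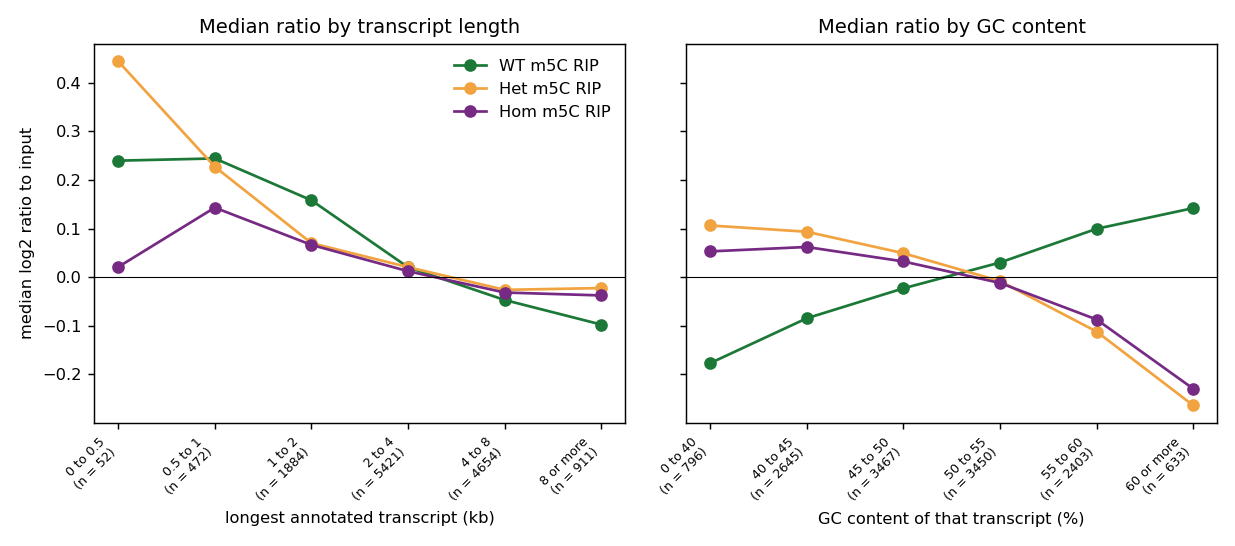
Median log2 ratio to input (vertical axis) of genes grouped by the length in kb (left) and the GC content in percent (right) of their longest annotated transcript, for each m5C RIP library, with the number of genes under each class. Ratios decline with length in WT, Het and Hom from 0.5 kb on up to 8 kb. With GC content the WT line rises from -0.18 to 0.14 while Het and Hom fall.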

How the data were processed

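Per the labels' protocols, an antibody to 5-methylcytosine was incubated with 1 ug of mRNA from an oligo-dT bead kit; the protocols name both rRNA depletion and polyA enrichment. Values are raw counts per gene deposited by the authors. Per the submitters' processing notes, the tools were Trim Galore 0.4.1, HISAT2 and featureCounts and the build was mm10. The sources used here do not give the annotation or strand setting. Entries for reads in no gene (18.4% in input, 5.96 to 9.46% in m5C RIP) and other entries that name no gene entered neither library sizes nor tests. Of 31017 gene symbols, 30416 matched 1 GENCODE M21 gene and 48 more than 1.

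The 4 cortex libraries were fitted in edgeR 4.0.16 (R 4.3.3): filterByExpr (minimum count 10, minimum total 15), TMM, glmQLFit and glmQLFTest, assay as the only term, two-sided, Benjamini-Hochberg adjustment over 13518 genes, threshold 0.05. Because the input is single, a gene passed this filter if any library reached the minimum count, scaled to depth. There were 2 residual degrees of freedom, the spread came from the 3 m5C RIP libraries, and the common biological coefficient of variation was 0.159. SE was taken as log2 fold change over root F. Single-library ratios used a prior count of 2, and folds against 0 counts used 3 counts in each library. Depth, 1310590 to 4913482 counts in genes, limits low genes. Reads without molecular identifiers are not independent molecules, so floors cover counting error only.

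Named genes are the 12 called in each direction with the largest change, a mean of at least 10 CPM and 1 direction in all 3 libraries, leaving out placeholder names; up to 4 members of smallest p in each list; and Dnmt1. Called genes outside the rule, the 4 uncalled mitochondrial genes and the sequences shown were chosen after their values were seen. Members, lists and tests were chosen with earlier results of these data known. The fit was tested on simulated data. Alternatives were RLE size factors, library totals, no filter, at least 10 CPM, removal of mitochondrial, histone, non-polyadenylated and dominant transcripts, leaving out each library, DESeq2 1.42.0, a prior count of 0.5 and 1.5-fold; other sets of transcripts for length were added after seeing the data. Tables and plots used matplotlib 3.10.9, SciPy 1.17.1, numpy 2.4.6, pandas 2.3.3 and Python 3.11.15.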

Additional observations from a re-analysis of the deposited data

Results flagged for a closer look

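Unaligned entries, which no comparison used, were 86.3% of all entries in WT, 79.7% in Het and 79.3% in Hom m5C RIP, above the 63.2% of the input.

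The relation of the log2 ratio with GC content had opposite signs, Spearman's rho 0.15 in WT, -0.17 in Het and -0.14 in Hom over 13394 genes. The difference was not tested, with 1 library per genotype. The median log2 ratio over the list of dominant and ribosomal-overlapping transcripts was 0.49 in WT and below 0 in Het (-2.01) and Hom (-1.20). Its abundant members Gm26917, Gm42418 and Lars2 were below 0 in WT as well. The median log2 ratio of the haemoglobin and blood genes (5 tested) was 0.27 in Het and below 0 in WT (-0.70) and Hom (-0.93).

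Among the genes named by rule with a mean of at least 10 CPM, those with libraries on both sides of the input and over 1 apart on the log2 scale were the following: Lhfpl3 (highest ratio 1.62, in Het), Esam (1.12, in Het), Kl (1.11, in Hom), Prlr (0.88, in Hom), Hba-a1 (0.83, in Het) and Hba-a2 (0.27, in Het). None was called, and these differences were not tested.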

How the results depend on the processing

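All 65 calls kept their direction in every alternative that gave a value, and 35 (17 higher, 18 lower) stayed called in each one that gave an adjusted p. DESeq2 lost 22 of them, leaving out Hom 19, leaving out Het 7, RLE size factors 8, library totals 4, and restriction to 10 CPM 20. Not every such loss is named gene by gene above. Genes called higher, 36, became 57 with no filter and 20 at 10 CPM or more. Genes called lower, 29, became 52 with no filter. Leaving out a library gave 27 to 127 higher and 29 to 82 lower. The highest of each came without WT, where all 65 remained called. The 71 genes at least 2-fold higher in every library became 127 with no filter, 34 at 10 CPM or more, 335 at 1.5-fold and 104 to 166 with a library left out. The 89 at least 2-fold lower became 772, 25 and 267 in the same order, and 116 to 243. DESeq2 called 29 higher and 20 lower, with 404 genes at an unadjusted p under 0.05 against 919 in edgeR. No paired analysis was possible because each cortex genotype has 1 library and the input is single. With 1 input, its own spread was taken from the m5C RIP libraries. The cause of these changes was not tested.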
